A study of Schizosaccharomyces pombe with 4 samples.

Results

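The outer 100 kb of both ends of chromosome II of the fission yeast Schizosaccharomyces pombe was covered by 585 of the 41551 non-control probes of a genome tiling array. Members were chosen by position alone, as probes whose name places them on chromosome II below position 100000 or from position 4410000. This gave 275 tiles at the left end and 310 at the right end. Each of 4 cultures was measured on 1 array by chromatin immunoprecipitation of DNA-bound protein (ChIP-chip), with precipitated DNA (IP) in Cy5 and whole-cell extract DNA (WCE) in Cy3. In Taz1_wt, wild-type cells were precipitated with an antibody raised against Taz1. Taz1_L593F used that antibody in cells with the allele taz1l593F (mut5). In Taz1_GFP the Taz1 protein carried a GFP tag and was precipitated through it, and in Rif1_Myc a Myc tag on Rif1 served in the same way. All cultures grew in log phase in the rich medium YEA at 30 °C and were fixed with 3% paraformaldehyde, and DNA was sheared to 500 to 1000 bp. With 1 array in a group no difference between groups could be tested, and array and group cannot be told apart. No array of an untagged strain with a tag antibody was analysed here.

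Fission yeast telomeres are short repeats bound by Taz1, the double-strand DNA-binding subunit of shelterin. Rif1 is brought to telomeres by Taz1 and also binds elsewhere on the chromosome arms, where it holds back the firing of late replication origins. Inside the telomere repeats lie subtelomeres, in which stretches of nearly the same sequence recur at several chromosome ends, and further in lie genes that are silent in rich medium, among them genes for nutrient uptake.

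Every value below is the log2 ratio of IP over WCE signal, centred on its array's median, so 0 is the typical probe of that array and 1 is 2-fold above it. The robust SD of this ratio over all probes was 0.24 in Taz1_wt, 0.28 in Taz1_GFP, 0.20 in Taz1_L593F and 0.40 in Rif1_Myc. Positions are those of the array design, and no source used here names their genome build. To name genes, the tiles were registered on assembly ASM294v3, where the ends needed shifts of 100, −800 and −1700 bp. A tile whose name carries an f or m is called marked here. The shifts were chosen so that the mark matched the presence of another copy in the reference at the most tiles. These were 209 of 215, 60 of 60 and 302 of 310 tiles, so the match is no separate check of the shifts. For the second stretch, shifts from −1000 to −800 bp matched equally well. Gene names at single tiles are at best accurate to about a tile spacing of 300 bp.

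The tiles did not reach the telomeres. The last tile of the right end lay 30945 bp short of the reference end. Neither of the subtelomeric helicase genes tlh1 and tlh2 was among the genes with a tile in these windows. Only genes of chromosome II were looked up, so tiles of such genes on other chromosomes were not examined. The left reference starts within a repeated stretch. Its first 20841 bp are an inverted copy of the stretch 4492120 to 4512923 at the right end, with an identity of 99.626%. The outer edge of this stretch lies 26881 bp from the right reference end. Probes of the left and right ends thus lie there in nearly the same sequence. DNA of one end cannot be told apart from DNA of the other, or from that of any further copy elsewhere. The start of ftm5, a gene for a transmembrane helix domain protein within this stretch, shows how close the copies are. The 150 bases around the annotated start (ASM294v3, chromosome II, 7890 to 8039, plus strand) occur without a difference at the right end of chromosome II (4504885 to 4505034, minus strand) and at the right end of chromosome I (5567181 to 5567330, minus strand):
ftm5 start region: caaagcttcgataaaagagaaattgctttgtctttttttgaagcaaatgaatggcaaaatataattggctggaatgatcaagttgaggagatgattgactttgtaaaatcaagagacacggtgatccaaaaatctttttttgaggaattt

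The tiling had gaps at both ends. At the left end 22 gaps left out 58 tiles, and 82.6% of the 300 bp grid was tiled. Of these missing tiles 49 lay below position 30000, where 50 tiles remained. The longest left gap ran from 23700 to 27000 and took in SPBC1348.09 and part of SPBC1348.10C, a phospholipase gene. The other left gaps of at least 1500 bp lay at 16500 to 18000, at 18600 to 21300 over SPBC1348.07, and at 27000 to 29400. At the right end 11 gaps left out 26 tiles and 92.3% of the grid was tiled. Both right gaps of at least 1500 bp flanked the single tile of the retrotransposon Tf2-11, at 4415700 to 4419000 and 4419000 to 4420800. The 20 to 30 kb step of the left end therefore rested on 8 tiles, and the last step of the right end on 2 tiles.

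At the left end, Taz1 signal was highest in the outermost 20 kb and again at the inner border of the window. The median of the 25 tiles in the first 10 kb was 0.84 in Taz1_wt, 0.70 in Taz1_GFP, 0.26 in Taz1_L593F and 0.07 in Rif1_Myc. On Taz1_wt all 25 of these tiles were above 0, from 0.29 to 1.36, and on Taz1_GFP 24 of 25 were. From 10 to 20 kb the medians of 17 tiles were 0.57, 0.39, 0.24 and −0.15 in the same order. By 20 to 30 kb the Taz1_wt median was 0.03.

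From 30 to 90 kb the Taz1 arrays stayed near the median of the genome. The Taz1_wt step medians lay between −0.26 and 0.00, those of Taz1_GFP between −0.21 and 0.03, and those of Taz1_L593F between −0.08 and 0.13. Rif1_Myc was below 0 in each of these 6 steps, with medians from −0.65 at 60 to 70 kb to −0.28 at 80 to 90 kb. In the last step, 90 to 100 kb, the medians of 31 tiles were 0.70 in Taz1_wt, 0.33 in Taz1_GFP, 0.19 in Taz1_L593F and 0.41 in Rif1_Myc. Over the whole left end the median was −0.04 in Taz1_wt (95% order-statistic interval −0.10 to 0.02), 0.04 in Taz1_GFP (0.00 to 0.09), 0.10 in Taz1_L593F (0.06 to 0.13) and −0.31 in Rif1_Myc (−0.41 to −0.25). These intervals cover the spread of neighbouring tiles on 1 array, not that of cultures.

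At the right end the highest 10 kb step medians of Taz1_wt and Taz1_GFP lay at its outer edge. The 25 tiles from 4500000 to 4510000 had medians of 0.73 in Taz1_wt, 0.60 in Taz1_GFP, 0.22 in Taz1_L593F and 0.06 in Rif1_Myc. In the next step inwards, with 32 tiles, they were 0.05, 0.09, 0.08 and −0.27. The Taz1_wt medians of the other 10 kb steps from 4410000 to 4490000 lay between −0.17 and 0.21, with the highest at 4410000 to 4420000, just inside the rule's border. Taz1_GFP was raised in places where Taz1_wt was not: over 4455000 to 4460000 all 17 tiles were above 0 in Taz1_GFP, with a median of 0.30, and the Taz1_wt median was −0.24. Over 4475000 to 4480000 the medians were 0.29 and −0.03, and over 4445000 to 4450000 they were 0.26 and 0.20. Rif1_Myc was lowest at 4450000 to 4460000, with −0.52, and 0.25 at 4420000 to 4430000. Over the whole right end the median was −0.04 in Taz1_wt (−0.08 to 0.02), 0.11 in Taz1_GFP (0.05 to 0.16), 0.02 in Taz1_L593F (0.00 to 0.06) and −0.13 in Rif1_Myc (−0.20 to −0.05).

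**Figure D1:**
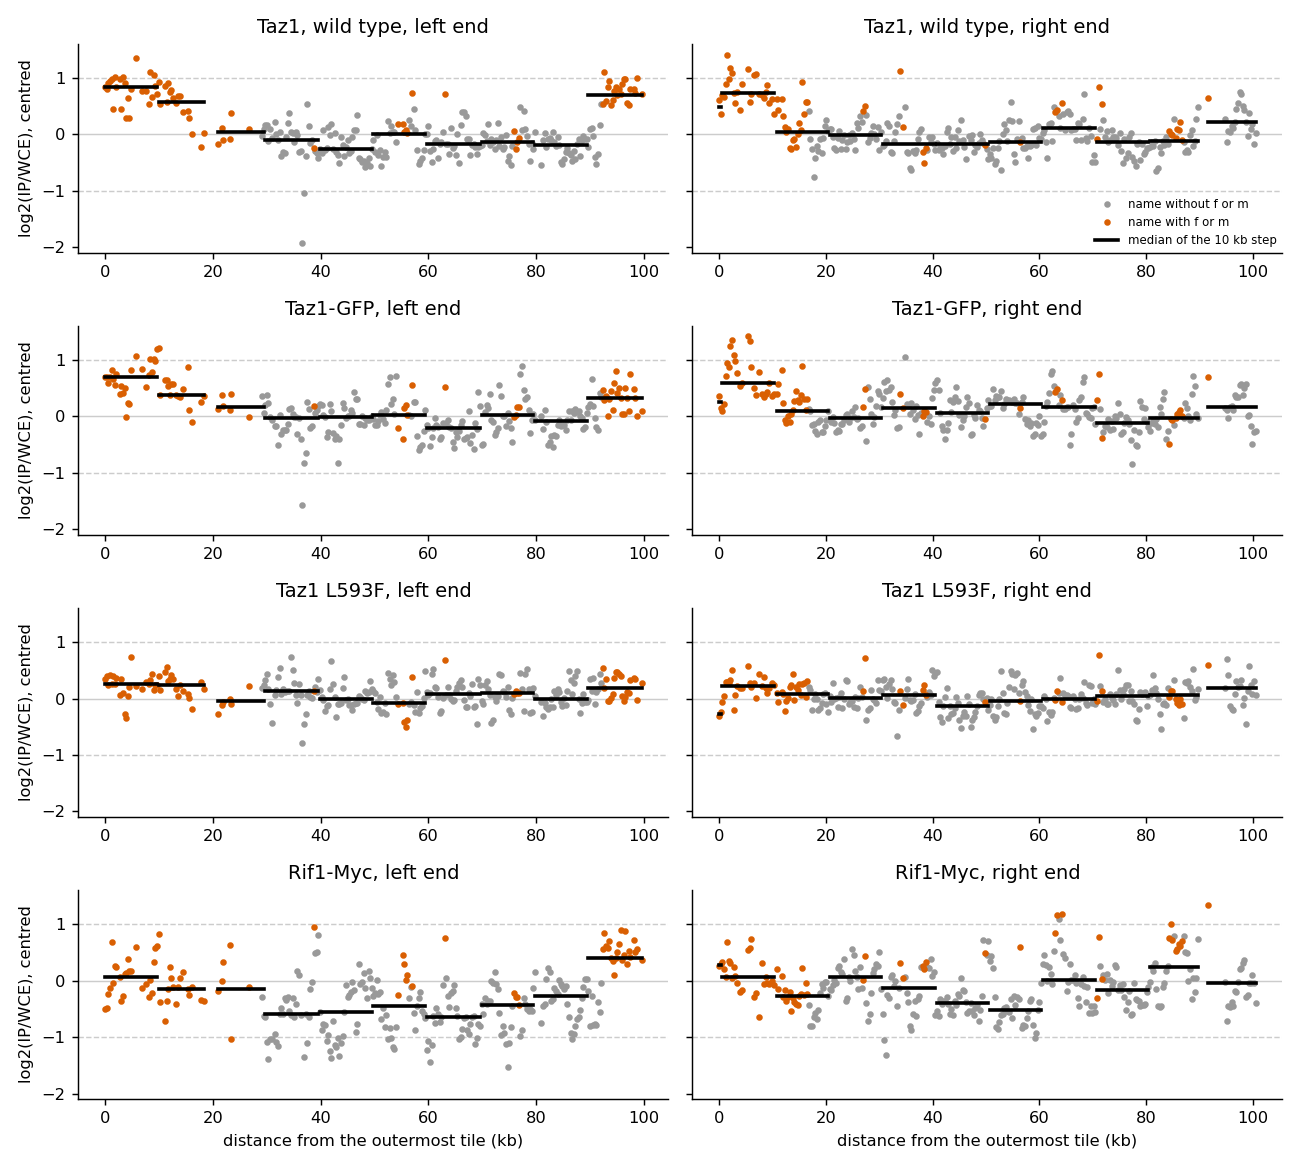
Each point is 1 tile, with its centred log2 ratio of IP over WCE against its distance in kb from the outermost tile of that end; orange points are marked tiles, grey points unmarked tiles and black bars the medians of the 10 kb steps, and dashed lines mark 2-fold above and below the array's median. The Taz1_wt medians of the outermost full steps are 0.84 on the left and 0.73 on the right, and the left end has a further step at 0.70 near its inner border.

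At the rule's borders the values ran on without a break. On Taz1_wt the last tile inside the left window, at 99900, read 0.72 and the first outside, at 100200, also 0.72. At the right border the tile at 4410000 read 0.02 and the one outside, at 4409700, −0.19.

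A tile was called enriched where the running median of 3 neighbouring tiles was at least 2-fold. On Taz1_wt 1 left tile and 5 right tiles were enriched, against a background of 0.528% of all chromosome tiles. On Taz1_GFP 4 left and 5 right tiles were enriched (background 1.24%), on Taz1_L593F none at either end (background 0.017%), and on Rif1_Myc none at the left and 3 at the right (background 2.09%). For the right end on Taz1_wt, 5 of 310 tiles, the exact binomial 95% interval of 0.526% to 3.72% just includes the background. This interval covers counting error only and treats tiles as independent, although neighbouring calls share tiles, so it is too narrow. With a normexp background correction 32 left and 29 right tiles were enriched on Taz1_wt, and with loess none, so these counts depend on the processing. Few tiles of the raised outer stretches thus passed 2-fold, although nearly all of them were above 0. The left Taz1_wt tile was also called on Taz1_GFP, and at the right 2 of the 5 tiles of each array were shared.

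The Taz1 enriched tiles all lay in the stretch shared by both ends. On Taz1_wt they fell at ftm5 (position 9000, running median 1.06), at ftm7, another transmembrane helix gene (4503600 to 4503900, 1.04), and at SPBCPT2R1.01C, a gene of unknown function (4508100 to 4508700, 1.18 or 2.27-fold). The 4 tiles of ftm5 averaged 0.84 ± 0.28 in Taz1_wt, 0.89 ± 0.15 in Taz1_GFP, 0.29 ± 0.11 in Taz1_L593F and −0.04 ± 0.28 in Rif1_Myc (SD over tiles of 1 array). The 3 tiles of SPBCPT2R1.01C averaged 1.20 ± 0.21, 1.02 ± 0.21, 0.30 ± 0.03 and 0.45 ± 0.20 in the same order, the highest Taz1_wt mean of any gene of the right end with at least 3 tiles.

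On Taz1_GFP the highest running median of both ends, 1.34 or 2.53-fold, lay at SPBPB2B2.18, an uncharacterised gene. Its 3 tiles averaged 0.82 ± 0.31 in Taz1_wt, 1.22 ± 0.30 in Taz1_GFP, 0.35 ± 0.20 in Taz1_L593F and 0.62 ± 0.10 in Rif1_Myc. It was thus high on all 4 arrays, and it was also, among right-end genes with at least 3 tiles, the one with the highest Taz1_L593F mean. The other Taz1_GFP regions were at 9000 to 10200 beside ftm5 (1.20) and at 4507800 to 4508400 in SPBCPT2R1.01C (1.25).

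The profile through the shared stretch was nearly the same when read from either end. It held 42 left and 46 right tiles, of which 25 pairs lay within 150 bp of the same place. Across these pairs the median absolute difference between the ends was 0.14 in Taz1_wt, 0.12 in Taz1_GFP, 0.10 in Taz1_L593F and 0.10 in Rif1_Myc. Pearson's r over the 25 pairs was 0.81, 0.90, 0.65 and 0.87, as a description of tiles that share their array and DNA. These pairs are repeat readings of nearly the same sequence, not independent ends.

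Within this stretch Taz1 signal was not even. By distance from the outer edge of the left copy, the Taz1_wt medians of left tiles over successive 4 kb stretches were 0.92, 0.76, 0.79, 0.67 and 0.01. The right tiles, which start 4 kb in, gave 0.74, 0.81, 0.63 and 0.04, and the 3 right tiles beyond 20 kb gave 0.57. From 16 to 20 kb both readings were thus near 0, although those tiles, 4 left and 13 right, were all marked too.

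**Figure D2:**
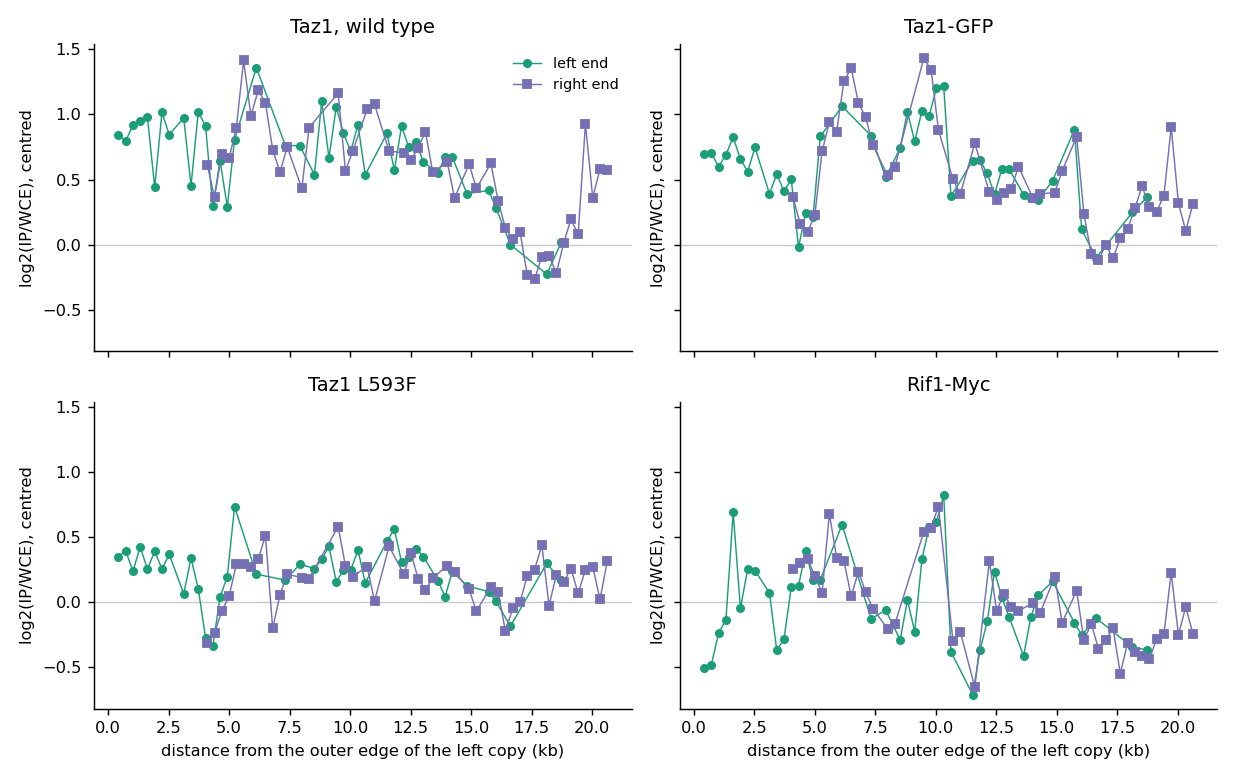
Centred log2 ratio of IP over WCE of each tile against its place in the stretch shared by both ends, in kb from the outer edge of the left copy, with green circles for left tiles and purple squares for right tiles. On each array the readings from both ends follow one another, with a median absolute difference of 0.14 in Taz1_wt and 0.10 in Rif1_Myc, and Taz1_wt is near 0 from 16 kb inwards before a few higher right tiles.

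Marked tiles, whose sequence recurs in the genome, carried most of the Taz1 signal of both ends. At the left end the median of 82 marked tiles was 0.68 in Taz1_wt, 0.39 in Taz1_GFP, 0.19 in Taz1_L593F and 0.12 in Rif1_Myc. The 193 unmarked tiles had −0.16, −0.06, 0.06 and −0.55. At the right end the 70 marked tiles had 0.47, 0.35, 0.13 and 0.08, and the 240 unmarked tiles −0.09, 0.04, 0.00 and −0.19. All 6 Taz1_wt and all 9 Taz1_GFP enriched tiles were among the 152 marked tiles of both ends. Over all chromosomes, 107 of 1508 marked tiles were enriched on Taz1_wt and 146 on Taz1_GFP. Of 39743 unmarked tiles 111 and 364 were.

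The difference between marked and unmarked tiles was not particular to the ends. On chromosome II between the windows, 261 marked tiles had a median of 0.39 in Taz1_wt, 0.35 in Taz1_GFP, 0.05 in Taz1_L593F and 0.42 in Rif1_Myc, and 13990 unmarked tiles had 0.01, 0.03, 0.00 and 0.01. WCE signal, as a mean standard score over the arrays, was also higher at marked tiles, with medians of 0.84 and 0.91 at the ends against −0.81 and −0.69 at unmarked tiles. The part of repeated sequence and of WCE signal in the raised values was not tested.

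**Figure D3:**
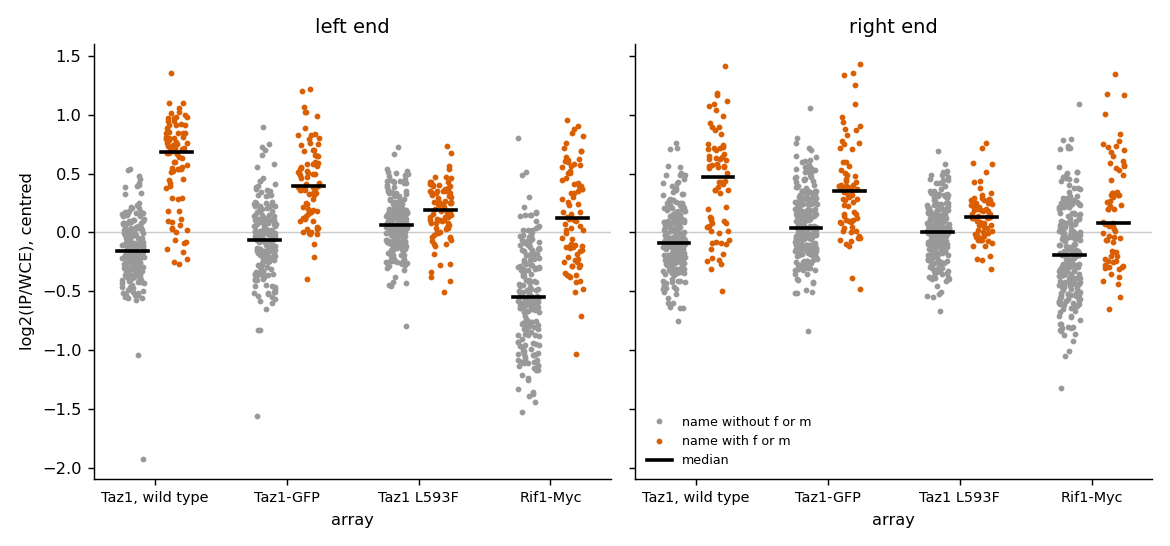
Centred log2 ratio of IP over WCE of every tile by end and array, with unmarked tiles in grey, marked tiles in orange and medians as black bars (random sideways jitter). Marked tiles have the higher median on every array and at both ends, for example 0.68 against −0.16 in Taz1_wt at the left end.

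Not all marked tiles were high. The 5 marked tiles at 54600 to 56400, around the fluoride exporter gene fex2, had a median of 0.09 in Taz1_wt, 0.03 in Taz1_GFP, −0.38 in Taz1_L593F and 0.11 in Rif1_Myc, and their closest copy lies at the left end of chromosome I. The 4 at 76200 to 77100, in the L-asparaginase gene SPBPB21E7.09, had −0.10, 0.10, 0.10 and −0.29. The marked tiles of pfl5, a glycoprotein gene with internal repeats, had run medians between −0.08 and 0.13 on the Taz1 arrays and of 0.61 and 0.75 in Rif1_Myc, and the gene's 14 tiles averaged 0.57 ± 0.28 in Rif1_Myc.

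The raised step at the inner border of the left window held a tandem block. In the reference, 4 copies of a 2759 bp unit follow each other from 91637 to 102672 with an identity of 100%, and SPBPB10D8.04C to SPBPB10D8.07C, transporter genes, lie one after another there. The 300 bases around the annotated starts of SPBPB10D8.05C (ASM294v3, chromosome II, 95573 to 95872, minus strand), SPBPB10D8.06C and SPBPB10D8.07C do not differ at any base:
SPBPB10D8.05C start region: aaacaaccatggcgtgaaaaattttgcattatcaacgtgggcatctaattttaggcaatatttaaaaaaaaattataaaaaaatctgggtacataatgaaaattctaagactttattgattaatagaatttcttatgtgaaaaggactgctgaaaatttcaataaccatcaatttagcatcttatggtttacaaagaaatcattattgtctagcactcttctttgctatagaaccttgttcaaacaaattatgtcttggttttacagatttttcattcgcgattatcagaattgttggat
Each unit also holds 1 match to TGTAACC, the reverse complement of GGTTACA, the core of the fission yeast telomere repeat. It is in capitals here, in the second unit, with 40 bases on either side (chromosome II, 96395 to 96481, plus strand):
tandem unit motif: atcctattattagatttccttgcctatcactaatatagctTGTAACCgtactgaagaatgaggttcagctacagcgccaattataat

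The 22 tiles of the block, from 92700 to 99900, covered 3 of the units within the window. Their median was 0.78 in Taz1_wt (lowest 0.52), 0.33 in Taz1_GFP (0.00 to 0.80), 0.23 in Taz1_L593F (−0.05 to 0.54) and 0.52 in Rif1_Myc (0.09 to 0.90). On Taz1_wt and Rif1_Myc every tile of the block was above 0. Among genes of the left end with at least 3 tiles, SPBPB10D8.06C had the highest mean on Taz1_wt, 0.84 ± 0.13, and SPBPB10D8.05C on Rif1_Myc, 0.61 ± 0.23.

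Tiles at neighbouring places in different units gave like readings on the Taz1 arrays. Of pairs of tiles from different units, 13 lay within 60 bp of each other in the unit. As registered, these were tiles side by side with scarcely a base in common, for example at 204 and 263 bp from the unit's start. They differed by a median of 0.11 in Taz1_wt, 0.05 in Taz1_GFP, 0.06 in Taz1_L593F and 0.20 in Rif1_Myc. The 140 pairs at other places differed by 0.18, 0.26, 0.22 and 0.18. Neighbouring pairs were thus closer than other pairs on the Taz1 arrays and not on Rif1_Myc. The part of mere closeness within the unit in this was not tested. Divided by position into 3 equal parts, a split chosen after the values were seen, the unit had Taz1_GFP medians of 0.39, 0.05 and 0.33 (8, 7 and 7 tiles), Taz1_L593F medians of 0.38, −0.02 and 0.27, and Taz1_wt medians of 0.73, 0.94 and 0.72. The middle part was thus the lowest on Taz1_GFP and Taz1_L593F and the highest on Taz1_wt, in 1 array each and with no test. Its 7 tiles were spread from 0.00 to 0.50 in Taz1_GFP, and the tiles at 93900 and 96600, within 60 bp of the same place, read 0.32 and 0.05. The tiles nearest the GGTTACA match, at 94500, 97200 and 99900, read 0.60, 0.56 and 0.72 in Taz1_wt and 0.12, 0.33 and 0.09 in Taz1_GFP.

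**Figure D4:**
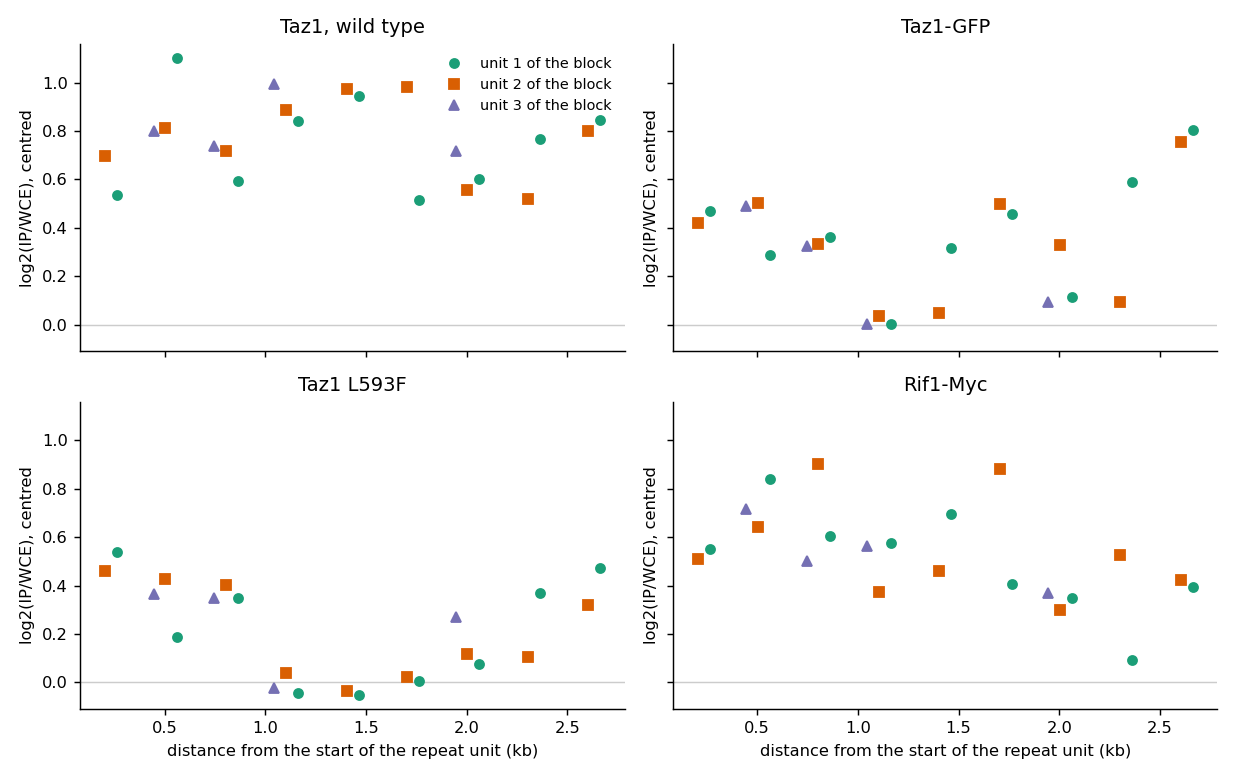
Centred log2 ratio of IP over WCE of the 22 tiles of the tandem block against distance in kb from the start of the repeat unit, with 1 symbol for each of 3 units. The median of the middle of 3 equal parts of the unit is 0.05 in Taz1_GFP and −0.02 in Taz1_L593F, with Taz1_GFP tiles spread from 0.00 to 0.50 there, while no Taz1_wt tile is below 0.52.

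GGTTACA was searched on both strands in the 300 bases around every tile. It was found at 10 of 275 left tiles (3.64%), 13 of 310 right tiles (4.19%) and 2.32% of tiles between the windows. The latter were placed on the reference by WCE signal and GC content alone. At the left end the Taz1_wt median was −0.11 with a match and −0.04 without, and at the right end 0.28 and −0.05. Among unmarked tiles it was −0.22 with a match and −0.16 without at the left, and −0.02 and −0.09 at the right.

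Taz1_L593F was below Taz1_wt where Taz1_wt was high and above it in most of the stretch from 30 to 90 kb of the left end. The median difference, Taz1_L593F minus Taz1_wt, was −0.59 in the first 10 kb of the left end, where it was below 0 at 25 of 25 tiles. It was −0.38 from 10 to 20 kb, −0.39 from 90 to 100 kb and −0.58 at 4500000 to 4510000, again at 25 of 25 tiles. From 30 to 90 kb of the left end the 10 kb step medians of the difference lay between 0.17 and 0.29. Within them, the 5 kb from 55000 to 60000, which begin in the marked tiles around fex2, had a median of −0.26, with 9 of 15 tiles below 0 and a Taz1_wt median of 0.04. Over the whole end the median difference was 0.10 at the left and −0.01 at the right. At marked tiles it was −0.40 and −0.28, and at unmarked tiles 0.23 and 0.05. Marked tiles had −0.28 between the windows and −0.57 at the ends of chromosome I, so a negative difference there was not particular to these ends. The raised stretches were named by high Taz1_wt, which is the term subtracted. The mutant array had the narrowest spread of the 4, with a robust SD of 0.20, and these differences are between 1 array of each strain.

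Taz1_GFP was closer to Taz1_wt than Taz1_L593F was in the raised outer stretches and by Pearson's r. By the median difference over the whole right end it was not, nor by Spearman's rho over unmarked right tiles. The difference, Taz1_GFP minus Taz1_wt, had a median of 0.03 at the left and 0.06 at the right, with −0.10 in the first 10 kb of the left end and −0.12 at 4500000 to 4510000. The largest step median at the right was 0.37, at 4470000 to 4480000. Pearson's r of both arrays over all tiles was 0.71 at the left (275 tiles) and 0.50 at the right (309 tiles). Over unmarked tiles it was 0.47 (193 tiles) and 0.15 (239 tiles), against 0.51 over the unmarked tiles between the windows. For Taz1_L593F and Taz1_wt it was 0.39 and 0.26 over all tiles and 0.31 and 0.09 over unmarked tiles. For Taz1_GFP and Taz1_L593F over unmarked tiles it was 0.47 and 0.25. Spearman's rho of Taz1_wt over unmarked left tiles was 0.33 with Taz1_GFP and 0.20 with Taz1_L593F. Over unmarked right tiles it was 0.05 and 0.07. Tiles on an array pair share their probe sequences and neighbouring fragments, so these are descriptions.

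Rif1_Myc was below Taz1_wt over most of both ends. The median difference, Rif1_Myc minus Taz1_wt, was −0.36 at the left and −0.17 at the right. It was −0.80 in the first 10 kb of the left end (below 0 at 25 of 25 tiles) and −0.65 at 4500000 to 4510000 (23 of 25 tiles), where Taz1 signal was high and Rif1_Myc near 0. The opposite sign was largest at 4420000 to 4430000, the step of pfl5, with 0.38. With loess the right-end difference was −0.01.

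Rif1_Myc was low over much of the left end. At 30 of its tiles the running median was at or under −1, against a background of 0.332%, and at 2 tiles of the right end. Taz1_wt had 2 such tiles at the left (background 0.242%), and Taz1_GFP (background 0.0315%) and Taz1_L593F (background 0.0145%) had none. The left tiles formed 7 regions, with the lowest running median, −1.25, at position 42000 between the hexose transporter gene ght7 and the urea transporter gene SPBPB8B6.02C. That region ran from 41700 to 44100. The median WCE scores of the 7 regions ran from −3.14 to −0.73. Depleted tiles were not counted under other processing. The Rif1_Myc step medians from 30 to 90 kb lay between −0.37 and −0.23 with loess and between −1.12 and −0.30 with normexp.

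Of the 30 left tiles 28 lay between genes, as did both right tiles, while 153 of all 275 left tiles lay between genes. The exceptions were both tiles of SPBPB21E7.02C, a gene of the phosphoglycerate mutase family, at −1.44 and −1.13. On the Taz1 arrays those tiles read −0.30 and −0.48 (Taz1_wt), −0.52 and −0.36 (Taz1_GFP), and 0.11 and 0.43 (Taz1_L593F). Among genes with at least 3 tiles the lowest Rif1_Myc mean of the left end was −0.64 ± 0.11, at SPBPB21E7.11, and that of the right end −0.51 ± 0.08, at say1, a sterol deacetylase gene.

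Over unmarked tiles, the Rif1_Myc median was −0.78 between genes (107 tiles) and −0.23 inside genes (86 tiles) at the left end. At the right end it was −0.33 (140 tiles) and −0.03 (100 tiles). Between the windows it was −0.10 (2961 tiles) and 0.03 (11029 tiles), so the gap between both kinds of tile was wider at the ends. Tiles between the windows were placed on genes by WCE signal and GC content alone, unlike those of the ends. The part of this in the narrower gap was not tested. On Taz1_GFP tiles between genes were the higher, with 0.01 against −0.15 at the left, 0.16 against −0.06 at the right and 0.09 against 0.02 between the windows. On Taz1_wt the medians between and inside genes were −0.11 and −0.18 at the left, −0.07 and −0.11 at the right, and 0.03 and 0.01 between the windows.

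Base composition and WCE signal moved with these values. Unmarked tiles between genes had a median GC content of 30.0% at both ends and 31.7% between the windows, against 36.7% inside genes in all 3 parts. Their median WCE score was −1.33 at the left and −1.17 at the right, against −0.52 between the windows. The GC content between the windows rests on a placement that itself used WCE signal. With a fit on GC content removed, the Rif1_Myc median of unmarked left tiles was −0.52 in place of −0.55 and that of right tiles −0.20 in place of −0.19. The part of WCE signal in the Rif1_Myc values was not tested.

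**Figure D5:**
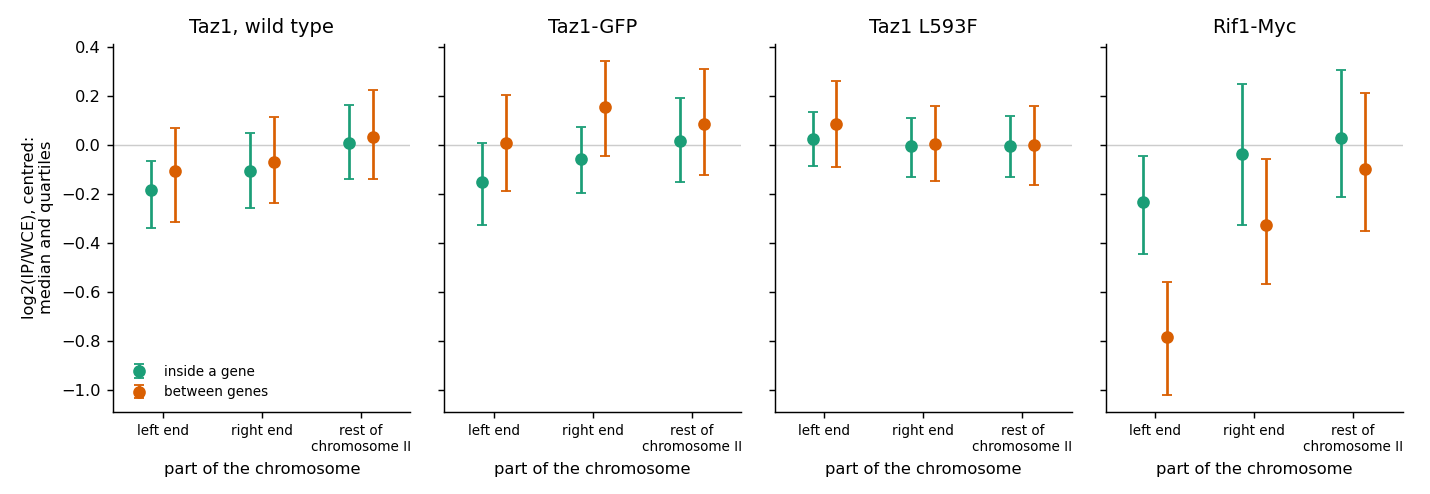
Medians and quartiles (bars) of the centred log2 ratio of IP over WCE over unmarked tiles inside genes (green) and between genes (orange), at each end and on the rest of chromosome II. Rif1_Myc is lowest between genes at the left end, at −0.78, against −0.10 on the rest of the chromosome.

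Rif1_Myc enrichment was called only at pho84, which encodes an inorganic phosphate transporter, at 4446600 to 4447200 (1.09 or 2.13-fold). The 7 tiles of pho84 averaged 0.38 ± 0.14 in Taz1_wt, 0.35 ± 0.15 in Taz1_GFP, 0.09 ± 0.14 in Taz1_L593F and 0.85 ± 0.30 in Rif1_Myc. On Rif1_Myc the tiles read from 0.47 to 1.17, and the tile before the gene 0.40 and after it −0.06. Of the 7 tiles 3 were marked, and part of the gene matches another stretch of chromosome II at 83.7%. With marked tiles left out, with loess or with the arrays scaled to a common spread, no Rif1_Myc tile of the right end was called.

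The lowest reading of both ends on the Taz1 arrays was a tile placed on a stretch that matches mitochondrial DNA. The tile at 36900, between SPBC1348.12 and ght7, read −1.93 in Taz1_wt, −1.56 in Taz1_GFP and −0.79 in Taz1_L593F. On Rif1_Myc its spot was marked as an outlier and left out, and it read −2.02 when kept. The reference around it holds a 364 bp stretch, 36900 to 37263, that matches the mitochondrial genome at 94.8%. The first 150 bases of the match differ at 1 base, in capitals:
nuclear, chromosome II 36900 to 37049, plus strand: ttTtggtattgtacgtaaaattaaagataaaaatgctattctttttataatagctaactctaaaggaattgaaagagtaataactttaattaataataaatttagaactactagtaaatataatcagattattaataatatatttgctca
mitochondrial, 7222 to 7371, plus strand: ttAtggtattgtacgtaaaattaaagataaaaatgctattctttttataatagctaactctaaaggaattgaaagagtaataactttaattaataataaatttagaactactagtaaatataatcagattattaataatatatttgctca
The 61 mitochondrial probes of the array had medians of −2.38 in Taz1_wt, −1.87 in Taz1_GFP, −0.73 in Taz1_L593F and −3.11 in Rif1_Myc. The tile's readings stood in the same order over the arrays as these medians, with the outlier spot kept on Rif1_Myc. Its name carries no f or m, and its WCE score was 0.14, against −2.74 and −2.39 at the next tiles inwards. The part of mitochondrial DNA in these readings was not tested. The next tile, at 37200, read −1.04, −0.83, −0.46 and −1.36, and the tile at 37800 read 0.53 in Taz1_wt and −1.10 in Rif1_Myc. The called depletion on Taz1_wt thus rested on the matching tile and its neighbour.

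No gene of the 6 lists had a mean at or beyond 2-fold in either direction, and their Taz1_wt means ran from −0.39 at eno102 to 0.38 at pho84. All 3 genes of the galactose cluster lay at the right end. The means on Taz1_wt were 0.06 ± 0.24 for gal7 (uridylyltransferase, 5 tiles), −0.12 ± 0.11 for gal10 (epimerase, 12 tiles) and −0.04 ± 0.22 for gal1 (galactokinase, 7 tiles), and their Rif1_Myc means were 0.15, 0.03 and −0.18. Of 5 phosphate genes looked for, pho84 and pho1 had tiles in these windows. The acid phosphatase gene pho1, next to pho84, had −0.04 ± 0.09 in Taz1_wt and 0.12 ± 0.33 in Rif1_Myc (5 tiles). Of 8 hexose transporter genes only ght7 lay in the windows, with −0.26 ± 0.12 in Taz1_wt and 0.43 ± 0.44 in Rif1_Myc (6 tiles). The enolase gene eno102 was low on Taz1_wt (−0.39 ± 0.11), Taz1_GFP (−0.45 ± 0.14) and Rif1_Myc (−0.42 ± 0.16) and less so on Taz1_L593F (−0.09 ± 0.15, 5 tiles). None of 4 iron and copper genes looked for had a tile here.

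Other genes set the lower limits. On Taz1_wt the lowest mean of the left end was −0.48 ± 0.05 at the acetamidase gene fah1 (6 tiles), and that of the right end −0.35 ± 0.19 at the fumarate lyase gene SPBC8E4.05C (5 tiles), which was also lowest there on Taz1_GFP (−0.48 ± 0.24). On Taz1_L593F the lowest were fex2 at the left (−0.35 ± 0.18) and say1 at the right (−0.31 ± 0.16). The single tile of Tf2-11 read 0.64 in Taz1_wt, 0.70 in Taz1_GFP, 0.59 in Taz1_L593F and 1.34 in Rif1_Myc.

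The ends of chromosome I carried more enriched tiles. Among 650 tiles of its outer 100 kb, 107 were enriched on Taz1_wt, 121 in Taz1_GFP, 7 in Taz1_L593F and 60 in Rif1_Myc, against 6, 9, 0 and 3 of 585 on chromosome II. Of these, 30, 42, 2 and 18 were unmarked tiles. At the left end of chromosome I the unmarked ones numbered 30, 22, 2 and 18, and at its right end 0, 20, 0 and 0. No unmarked Taz1 tile of chromosome II's ends was enriched, as at the right end of chromosome I on Taz1_wt and Taz1_L593F. Chromosome II's ends held 433 unmarked tiles. Of 39743 unmarked tiles over all chromosomes, 111 were enriched on Taz1_wt, 364 on Taz1_GFP and 2 on Taz1_L593F. Where both chromosomes share sequence, as at the start of ftm5, their DNA cannot be told apart. The distance of the tiles of both chromosomes from their telomeres was not compared.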

How the data were processed

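A custom 2-colour Agilent array for each of 4 groups carried tiles at a spacing of 300 bp, taken here as 60 bases long. The deposited scanner files were made with Agilent Feature Extraction 11.5.1.1, per the file headers, and give processed signals as an intensity in each channel, median spot and background signals as an intensity, and the log10 ratio of red over green. The authors' processed table holds these ratios as log2 values without centring, and all 41551 probes matched within 0.02.

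From the processed intensities, log2 of IP over WCE was taken and each array's median subtracted, without loess or quantile normalization. Outlier spots were dropped, from 2 on Taz1_L593F to 74 on Taz1_wt. At most 5 probes of an array were not well above background and none was saturated; with no counts, precision is limited by the number of arrays. A running median of 3 tiles at or beyond 2-fold made a call, and calls within 1 kb were merged. Tiles of both ends were registered on ASM294v3 by the agreement of marked names with repeated sequence (blastn 2.17.0, identity of at least 80% over 60 bp). The correlation of WCE signal and GC content settled ties. Tiles between the windows were placed block by block by that correlation alone, without a check against marked names. Scripts used Python 3.11.15, pandas 2.3.3, numpy 2.4.6 and limma 3.58.1 in R 4.3.3. Named genes were those at the called regions and at the highest and lowest readings, those beside tiling gaps of at least 1500 bp, the highest and lowest genes of each array, and 6 lists of nutrient and subtelomeric genes. The members and lists were chosen with earlier results of these data known. pfl5, Tf2-11 and the mitochondrial match were singled out after their values were seen. Alternatives were other background corrections, scalings, filters, thresholds and windows.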

Additional observations from a re-analysis of the deposited data

How the results depend on the processing

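No paired analysis was possible because each group had 1 array. The 22 results were end medians, differences between arrays and counts of enriched tiles. Each was recomputed under the alternatives that applied to it. Of 272 values 200 were labelled the same, 68 moved and 4 reversed. For medians and differences, the same meant within the interval of the main value. Counts were not judged by that interval. Reversed meant a changed sign where the main interval excluded 0. Further values changed sign where it included 0, and were labelled moved or the same. With normexp, Taz1_GFP minus Taz1_wt at the left went from 0.03 to −0.04 and was labelled the same. None moved with the series matrix values, outlier spots kept or dim spots left out. The cause of the moves was not tested, apart from thresholds and tile sets, which change what is counted.

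Normexp background correction moved the end medians (left, then right) to −0.23 and −0.14 for Taz1_wt and −0.44 and −0.30 for Rif1_Myc. Those of Taz1_GFP became −0.088 and −0.017 and changed sign at both ends. Those of Taz1_L593F became 0.033 and −0.024 and changed sign at the right. Normexp gave 0.17 and 0.11 (the latter with a changed sign) for Taz1_L593F minus Taz1_wt. For Rif1_Myc minus Taz1_wt it gave −0.64 and −0.36. Enriched tiles numbered 32 and 29 for Taz1_wt and 14 and 11 for Taz1_GFP. Loess gave −0.24 and −0.043 for Rif1_Myc and −0.23 and −0.0057 for Rif1_Myc minus Taz1_wt. It left 0 enriched tiles for Taz1_wt at either end and for Rif1_Myc at the right, and 0 and 3 for Taz1_GFP. Scaling to the mean median absolute deviation gave left values of −0.22 for Rif1_Myc, 0.15 for Taz1_L593F and −0.28 for Rif1_Myc minus Taz1_wt, 17 and 9 enriched Taz1_wt tiles, and 0 Rif1_Myc tiles at the right. Centring on chromosome II between the windows left 2 Taz1_GFP tiles at the left end.

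Leaving out the f and m tiles, an alternative chosen after seeing the data like the removal of a GC fit, gave left medians of −0.16 for Taz1_wt, −0.062 for Taz1_GFP, which changed sign, 0.059 for Taz1_L593F and −0.55 for Rif1_Myc, and right medians of −0.088 for Taz1_wt and 0.036 for Taz1_GFP. The differences became 0.23 and 0.046 (the latter with a changed sign) for Taz1_L593F minus Taz1_wt and 0.10 for Taz1_GFP minus Taz1_wt at the left. It left 0 enriched tiles for Taz1_wt and Taz1_GFP at both ends and for Rif1_Myc at the right. With m tiles alone left out, 2 Taz1_wt and 2 Taz1_GFP tiles were enriched at the right. With the GC fit removed, 0 Taz1_wt tiles were enriched at the left.

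The mean over probes gave 0.063 and 0.045 for Taz1_wt, which changed sign at both ends. Over the outer 50 kb the left medians for Taz1_wt, Taz1_GFP and Taz1_L593F were 0.045 (changed sign), 0.14 and 0.14. There Taz1_L593F minus Taz1_wt was −0.012 at the left, which changed sign, and −0.060 at the right, and Rif1_Myc minus Taz1_wt was −0.54 and −0.29. A threshold of 1.5-fold gave 53 and 27 enriched tiles for Taz1_wt, 25 and 20 for Taz1_GFP, 7 and 15 for Rif1_Myc, and 1 for Taz1_L593F at the right, while 3-fold gave 0 for Taz1_wt and Taz1_GFP at both ends and for Rif1_Myc at the right. Without the running median 6 Taz1_wt tiles at the left and 5 Rif1_Myc tiles at the right were enriched. With 1 array a group, signal over background and array number, rather than depth, limit these values.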
